A study of Mus musculus with 14 samples.

Results

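The genes described here are 43 mouse genes whose products add, remove or recognise acyl groups on histone lysines, or supply the acyl-CoA that the reaction uses. They were taken as a list of symbols by function, and the rule uses no measured value, although the list was drawn up with earlier results of these data known. All 43 were found among the 49943 genes of the RefSeq annotation of GRCm38.p6 on the autosomes, X and Y. For each gene, the peaks of H3K9cr (crotonylated lysine 9 of histone H3) and H3K9ac (acetylated lysine 9) were counted, and the bases they cover were summed, in the 3 kb either side of both annotated gene ends and over the gene body.

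The peaks come from ChIP-seq of mouse kidney, in which chromatin fragments are pulled down with an antibody and sequenced, so that marked regions stand out. The authors deposited 1 list of peak positions per library, and 14 lists were analysed, 8 of H3K9cr and 6 of H3K9ac. The mice were wild type (WT; C57BL/6J mice, bought as young adults, are named in the methods) or ACSS2-/- (ACSS2 knockout in the labels, a whole-body deletion of the acetyl-CoA synthetase ACSS2), and the kidneys were control (written C in the labels) or obstructed by unilateral ureteric obstruction (UUO), an operation that leads to fibrosis. Each combination of genotype and operation has 2 H3K9cr libraries. For H3K9ac it has 2 under UUO and 1 under control, replicate 2 in both genotypes. Sex and the time from surgery to harvest are not given in the sources used here for these libraries, and whether a library holds 1 kidney or a pool is not given either. Peaks on chromosome Y were listed in 8 of the 14 lists. In H3K9ac these were both control lists and, under UUO, ACSS2-/- replicate 2 alone. Whether sex differs between the groups is thus unknown, and its part in the results was not tested. The antibody catalogue numbers in the labels differ between the groups, so that antibody and group cannot be told apart from the labels.

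Acylation of histone lysines is set by writers, which are acetyltransferases that also use crotonyl-CoA, by erasers, which are the zinc-dependent deacetylases and the NAD-dependent sirtuins, and by readers with bromodomains, YEATS domains or double PHD fingers. YEATS domains and double PHD fingers bind crotonyl-lysine with preference over acetyl-lysine, while most bromodomains bind it poorly. ACSS2 makes acetyl-CoA from acetate in nucleus and cytosol and can also make crotonyl-CoA from crotonate, and glutaryl-CoA dehydrogenase (Gcdh) makes crotonyl-CoA in mitochondria during lysine breakdown. Both marks sit at active promoters, where their peaks usually extend from the start site into the first part of the gene.

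The lists give positions and no height, q value or read number, so that a covered base states only that signal passed the authors' threshold, and the read depth is unknown. An H3K9cr list held 27530 to 45014 peaks over 29.4 to 64.6 Mb, and an H3K9ac list held 15988 to 32760 peaks over 17.7 to 51.1 Mb. Control libraries covered 41.7 to 64.6 Mb and UUO libraries 29.4 to 44.6 Mb for H3K9cr, which overlap in that WT UUO replicate 1 (44.6 Mb) lay above WT control replicate 1 (41.7 Mb), and for H3K9ac 34.2 and 51.1 Mb against 17.7 to 30.9 Mb, without overlap. This difference runs through every comparison of UUO with control described here. In 4 of the 14 lists, the peak names carry another replicate number than the label. Summed over the 8 proximal tubule markers, H3K9cr covered 15216 to 24030 bp at the gene ends in control and 1940 to 5254 bp in UUO, and over the 9 leukocyte markers 1687 to 3735 bp in control and 12824 to 35516 bp in UUO. The 6 distal nephron markers had 15970 to 23225 bp in control and 8741 to 14669 bp in UUO, and the 5 injured tubule markers 1664 to 2464 against 2547 to 9352 bp, again without overlap. The ranges overlapped for the 4 endothelial markers (3902 to 9436 against 2924 to 6295 bp) and the 5 stroma markers (717 to 3418 against 1584 to 7545 bp). In H3K9ac, control and UUO did not overlap for proximal tubule (15840 and 20085 against 2468 to 6666 bp), distal nephron (16966 and 20031 against 5264 to 7778 bp) and endothelial markers (11373 and 11975 against 3014 to 9250 bp). They overlapped for leukocyte (3722 and 7542 against 7115 to 31459 bp), injured tubule (2264 and 3347 against 3275 to 8944 bp) and stroma markers (3611 and 6039 against 2140 to 8077 bp). Markers of several cell types thus moved with the operation, their part in the members' results was not tested, and in whole tissue fewer marked cells cannot be told apart from less mark per cell.

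Most members were marked at their start in every library. RefSeq gives a start site for 37 members, 52 sites in all, and 42 of them had a peak within 1 kb in all 14 libraries, 6 in none and 4 in some. Of all 32851 start sites in the same table, 34.6% were marked in all 14 libraries and 45.8% in none. The 250 bases upstream of the starts that show this contrast are printed here from the RefSeq promoter table (GRCm38.p6), 5′ to 3′ on the strand of the gene, with CpG dinucleotides in capitals. The set was chosen after the values were seen, to set marked and unmarked starts side by side. Acss2 is the deleted gene, Cdyl has an unmarked first start and a marked internal one, and Dpf1 and Hdac9 had no peak at their starts in any library. The positions are chr2:155517793-155518042 (plus strand), chr13:35659612-35659861 and chr13:35741152-35741401 (plus strand), chr7:29303755-29304004 (plus strand) and chr12:34917096-34917345 (minus strand).
Acss2: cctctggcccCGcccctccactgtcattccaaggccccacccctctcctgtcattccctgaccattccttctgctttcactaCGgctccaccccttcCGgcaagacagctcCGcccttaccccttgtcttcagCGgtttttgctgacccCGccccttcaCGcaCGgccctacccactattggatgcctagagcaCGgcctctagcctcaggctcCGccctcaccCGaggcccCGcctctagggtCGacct
Cdyl, first start: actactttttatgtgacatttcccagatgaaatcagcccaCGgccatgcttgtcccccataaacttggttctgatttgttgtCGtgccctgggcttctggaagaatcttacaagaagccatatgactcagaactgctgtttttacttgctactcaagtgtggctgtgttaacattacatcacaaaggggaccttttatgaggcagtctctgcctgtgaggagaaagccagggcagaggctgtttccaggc
Cdyl, second start: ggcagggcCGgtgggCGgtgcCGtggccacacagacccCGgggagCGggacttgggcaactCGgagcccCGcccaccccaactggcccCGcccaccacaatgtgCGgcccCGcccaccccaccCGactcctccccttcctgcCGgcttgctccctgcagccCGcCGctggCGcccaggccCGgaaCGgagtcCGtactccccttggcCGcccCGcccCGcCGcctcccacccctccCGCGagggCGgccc
Dpf1: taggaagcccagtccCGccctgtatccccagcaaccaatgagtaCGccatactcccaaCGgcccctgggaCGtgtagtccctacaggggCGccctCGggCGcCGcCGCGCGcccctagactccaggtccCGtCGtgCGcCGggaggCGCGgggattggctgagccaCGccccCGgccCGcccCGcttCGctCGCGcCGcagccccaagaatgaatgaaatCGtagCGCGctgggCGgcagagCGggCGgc
Hdac9, first start: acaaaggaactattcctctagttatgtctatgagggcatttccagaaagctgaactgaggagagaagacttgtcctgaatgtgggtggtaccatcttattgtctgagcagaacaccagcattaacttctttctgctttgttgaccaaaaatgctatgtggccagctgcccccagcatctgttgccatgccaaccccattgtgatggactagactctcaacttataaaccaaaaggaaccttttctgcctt

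Cdyl encodes a chromodomain protein that hydrates crotonyl-CoA and so lowers histone crotonylation. Its first start holds 2 CpG in the printed stretch, an observed over expected ratio of 0.15, and no library had a peak within 1 kb of it. The second start, 81540 bp further into the gene, holds 25 CpG at a ratio of 0.70 and was marked in all 14 libraries. There, the H3K9cr peaks of the control groups began 80599 to 80790 bp and ended 82610 to 82909 bp after the annotated gene end. Because the windows at the gene ends miss this start, Cdyl counted 0 bases at its ends in every library while its body had 1873 to 3053 bp of H3K9cr and 807 to 2763 bp of H3K9ac.

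Hdac9, a class IIa deacetylase, holds no CpG before its first start and 2 before its second start, and neither was marked in any library. Mllt3, which encodes the YEATS protein AF9, was marked in all 14 libraries at its first start, with a ratio of 0.78, and in none at its second start, 227084 bp away, with a ratio of 0.33. Kat2b, the acetyltransferase PCAF, showed the same order, with all 14 at the first start (0.58) and none at a start 17155 bp further on (0.35). Dpf1, the subunit of neuronal BAF complexes, goes against this order, since its start holds 31 CpG at a ratio of 0.98 and was unmarked in all 14 libraries. In this kidney series it is the only one of 36 member starts with a ratio of 0.6 or more that was marked in none, while 34 of the 36 were marked in all. Among all starts with such a ratio, 9.55% were marked in none, so an unmarked start of this kind is not particular to Dpf1.

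Over all start sites, 76.0% of those with a ratio of 0.6 or more were marked in all 14 libraries, 28.6% of those from 0.3 to 0.6 and 5.05% of those under 0.3. The member starts marked in all had ratios of 0.34 to 1.12 with a median of 0.77, and those marked in none had a median of 0.25 (0.00 to 0.98). The GC box GGGCGG was found on either strand before 32 of 52 member starts (61.5%) and 32.7% of all starts, CCAAT before 22 (42.3%, against 33.8%), the ETS core CCGGAAG before 6 (11.5%, against 6.91%) and TATAAA before 2, those of Hdac8 and Hdac9 (3.85%, against 12.4%). The Acss2 stretch holds all of these but the last. These are matches of letters in 250 bases, in part overlapping with the CpG content, and say nothing of a factor.

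**Figure D1:**
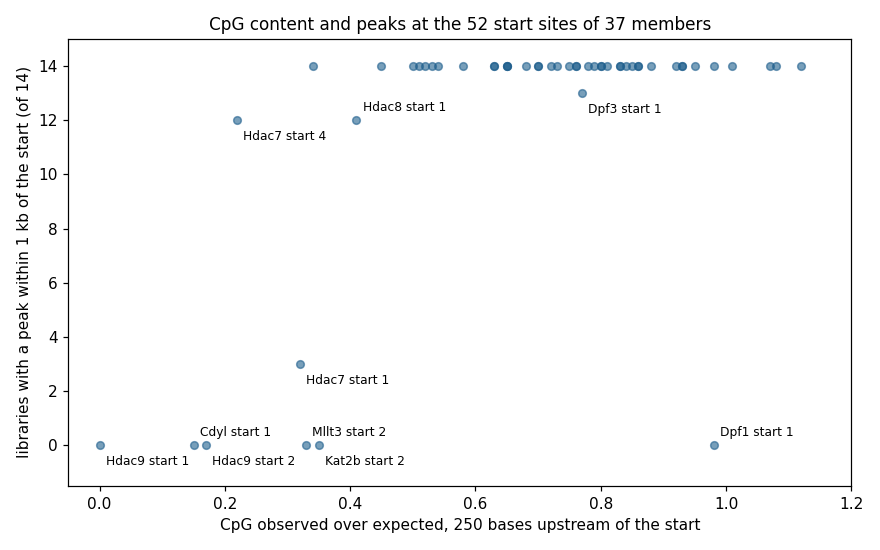
CpG observed over expected ratio of the 250 bases upstream (x) against the number of libraries, of 14, with a peak within 1 kb (y), 1 point for each of the 52 start sites of 37 members. The 42 sites marked in all 14 libraries lie at 0.34 and above, and of the 6 at 0 the Dpf1 start alone lies above 0.35.

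At the gene ends, 37 of the 43 members (86.0%) had a peak in all 14 libraries, against 48.9% of all 21887 protein-coding genes and 27.1% of all genes. No member but Cdyl and Hdac9 lacked one in every library. Hdac4, Hdac7, Hdac8 and Dpf1 had an end peak in some libraries. Over the gene body, 39 of 43 had a peak in all 14, the others being Hdac6, Hdac8, Hdac9 and Dpf1. The share of all genes with a body peak in every library was not counted, so this count has no background beside it. In 31 members the end of another gene lies in the windows, in 25 of them that of a protein-coding gene, and a peak there cannot be given to one of them from its position alone.

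**Figure D2:**
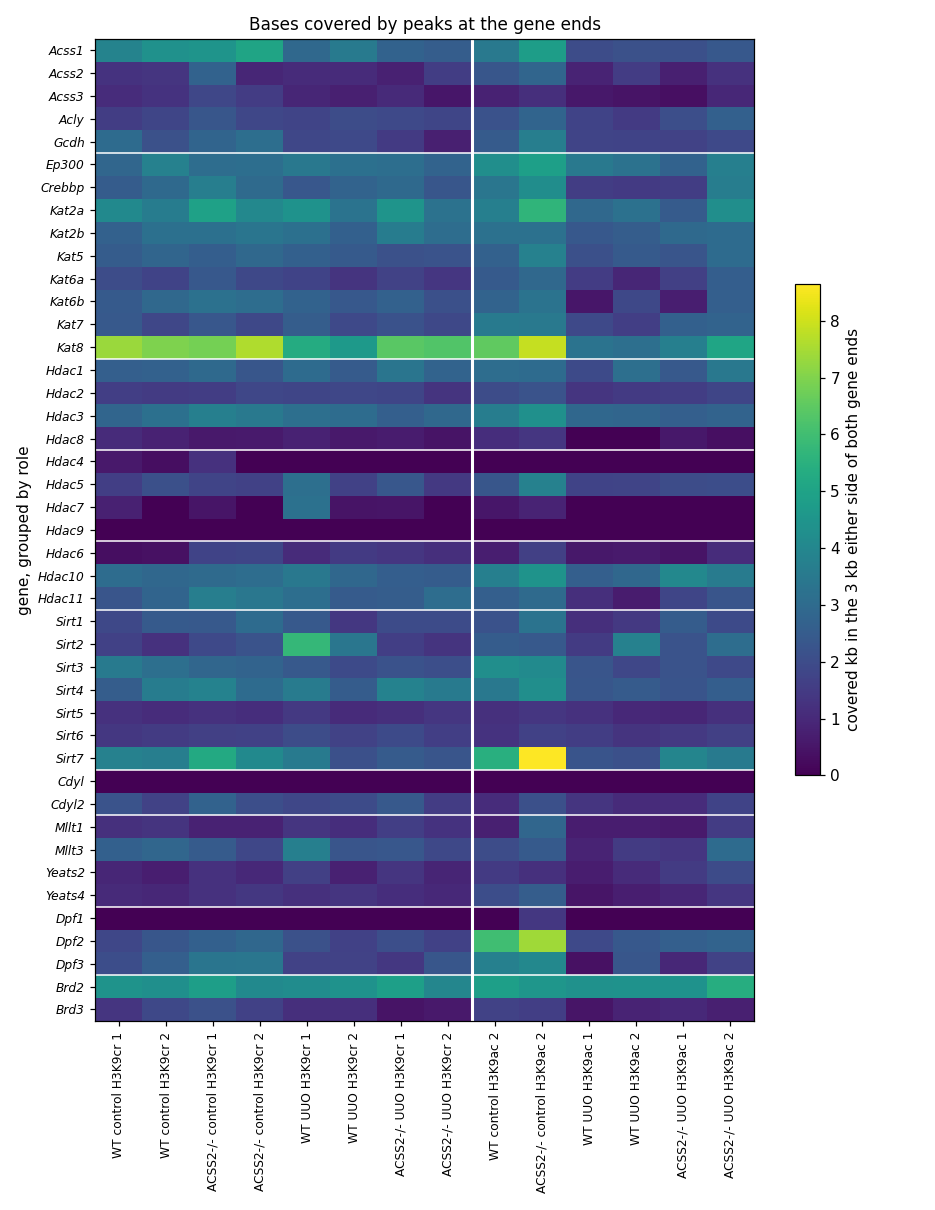
Bases covered by peaks in the 3 kb either side of both gene ends, in kb (colour), for the 43 members (rows, ordered by role, white lines between roles) and 14 libraries (columns, H3K9cr left and H3K9ac right of the white line). Kat8 has the highest values in the H3K9cr control libraries, Cdyl and Hdac9 are at 0 throughout, and the H3K9ac UUO columns are darker than the H3K9ac control columns.

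Acss2, the gene deleted in the knockout, lies on chromosome 2 at 155518043 to 155562743 on the plus strand. In H3K9cr lists, the bases covered at its ends were 1279 and 1334 in WT control, 2719 and 913 in ACSS2-/- control, 1069 and 1080 in WT UUO and 799 and 1583 in ACSS2-/- UUO. In H3K9ac lists, they were 2319 in WT control, 2823 in ACSS2-/- control, 869 and 1530 in WT UUO and 760 and 1229 in ACSS2-/- UUO. A peak at the start was therefore called in all 14 libraries, the 7 of ACSS2-/- mice included, and the genotypes overlap. The ACSS2-/- mean of H3K9cr was 1503.5 ± 881.1 bp against 1190.5 ± 135.9 bp in WT (SD, n = 4 each), with a two-sided exact permutation p of 0.657 (adjusted p 1.0 over all 23157 genes), and this difference of 313.0 bp turned to -92.2 bp without ACSS2-/- control replicate 1. The peaks lay at and after the start rather than before it: of the 250 upstream bases printed above, a median of 31 were covered in H3K9cr libraries and 0 in H3K9ac libraries, with a range of 0 to 250 in both.

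Inside Acss2, a peak within 19762 to 21344 bp after the start was listed in all 4 H3K9cr WT libraries and in both ACSS2-/- control ones. A second, within 22040 to 23589 bp, was listed in 3 of 4 ACSS2-/- H3K9cr libraries and in WT UUO replicate 1. No stretch that was marked in the WT lists was empty in all ACSS2-/- lists except a single peak of 415 bp in H3K9cr WT UUO replicate 2, 34941 bp after the start. Where the deletion lies in the gene is not given in the sources used here, and peaks of a chromatin mark need not vanish with it, so these lists do not check the genotype.

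**Figure D3:**
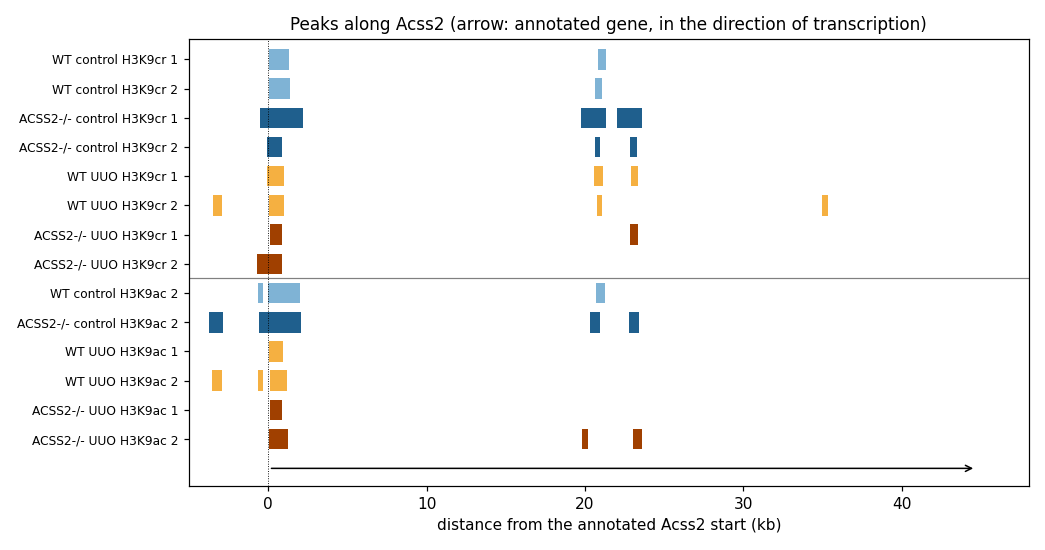
Peaks (bars) along Acss2 in the 14 libraries (rows), by distance in kb from the annotated start (x), with the arrow marking the gene in the direction of transcription. All 14 rows have a bar at the start, and bars recur near 21 and 23 kb in both genotypes.

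In UUO against control, the members whose H3K9cr groups did not overlap were all lower in UUO. These were 8 of 40 members with a covered base, namely Acss1, Acss3, Brd3, Gcdh, Kat6a, Kat8, Sirt3 and Sirt7, against 12.5% of all 23157 genes tested, and 0 were higher, against 2.15% of all genes. The median difference was -184.8 bp over the members and -144.8 bp over all genes. With 4 libraries against 4, the smallest possible two-sided exact permutation p is 0.0286, which all 8 reached, and the adjusted p over all genes was 0.195 for each, so that none passed 0.05. When covered bases were divided by the total length each library covers, 1 member was lower (Acss3) and 7 were higher (Hdac1, Hdac2, Hdac5, Kat2b, Mllt1, Sirt6 and Yeats2), against 3.7% of all genes lower and 13.8% higher on that scale. The direction at the gene ends thus rests on the scale, for the members as for all genes.

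The acyl-CoA suppliers held 3 of the 8. Acss1, the mitochondrial acetyl-CoA synthetase, showed the widest difference of all members in H3K9cr over the gene body, with 10643 and 12188 bp in WT control, 11521 and 12989 bp in ACSS2-/- control, 3889 and 3294 bp in WT UUO and 4187 and 3607 bp in ACSS2-/- UUO. Every control library lay above every UUO library, and the UUO mean was 31.6% of the control mean (3744.2 ± 382.3 against 11835.2 ± 996.0 bp, SD, n = 4 each, exact permutation p = 0.0286, adjusted p = 0.178). In all 4 control libraries, 1 unbroken H3K9cr peak of 9607 to 10868 bp ran over the start and the first 8733 to 9187 bp of the gene, whereas in UUO the start peak was 2560 to 2930 bp long and ended 1357 to 1443 bp into the gene. H3K9ac moved likewise, with 7461 and 8975 bp in control and 1434 to 1979 bp in UUO. Per Mb covered in the library, the Acss1 body had 178.4 to 272.3 bp of H3K9cr in control and 87.3 to 122.5 bp in UUO, and 175.6 and 218.1 against 64.1 to 100.9 bp of H3K9ac, so the groups stayed apart on that scale in both marks.

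Gcdh had 3021, 2154, 2790 and 3131 bp of H3K9cr at its ends in control and 1834, 1916, 1465 and 770 bp in UUO. All of it was 1 peak at the start, which ended 2344 to 2714 bp into the gene in control and 955 to 1591 bp into it in UUO. Acss3, a mitochondrial propionyl-CoA synthetase with 1 peak per library, had 1082 to 1835 bp in control and 513 to 1018 bp in UUO. Neither Acss2 nor Acly, the ATP citrate lyase that makes acetyl-CoA from citrate, was separated in H3K9cr. For Acly, H3K9cr covered 1570 to 2325 bp in control and 1782 to 2002 bp in UUO, so the UUO values lay inside the control range.

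Among the acetyltransferases, Kat8 (MOF, which acetylates H4K16) had 6844 to 7604 bp in control and 4640 to 6431 bp in UUO, in control the highest values of all members. Most of it lay in the window at its termination, where an end of Prss8 lies, with 5264 to 5968 bp in control and 3478 to 5198 bp in UUO, while the window at its own start had 1473 to 1636 against 1162 to 1363 bp. Both windows were thus separated. Kat6a (MOZ) had 1755 to 2389 bp against 1312 to 1753 bp, groups apart by 2 bp, and over its body 1518 to 4787 bp against 387 to 1103 bp. Ep300 and Crebbp, the writers best known for histone crotonylation, overlapped, with 2836 to 3812 bp in control and 2742 to 3468 bp in UUO for Ep300, and 2508 to 3699 against 2321 to 2965 bp for Crebbp.

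Sirt3 and Sirt7 were the sirtuins among the 8. Sirt3, a mitochondrial deacylase, had 2739 to 3519 bp in control and 1955 to 2429 bp in UUO, all in the window at its start, where the start of Psmd13, which runs the other way, lies close by. Sirt7, a nuclear deacylase, had 3712 to 5253 bp against 2097 to 3577 bp, shared between both of its windows, which hold the ends of Mafg and Pcyt2. The crotonyl-lysine erasers Hdac1, Hdac2 and Hdac3 were not separated: Hdac1 had 2314 to 2963 bp in control and 2466 to 3373 bp in UUO, Hdac2 1487 to 1851 against 1298 to 1853 bp and Hdac3 2833 to 3740 against 2609 to 3155 bp.

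Brd3, a BET reader of acetyl-lysine, had 1349 to 2151 bp in control and 454 to 1176 bp in UUO at its ends. Its RefSeq start lies 32.3 kb inside the annotated gene end and was marked in all 14 libraries, so these values concern the ends of the locus and not that start. At the outer end upstream of it, 639 to 1583 bp were covered in control, 572 and 310 bp in WT UUO and 0 in both ACSS2-/- UUO libraries. Hdac4 resembles it, with its start 15.4 kb inside the gene marked in all 14 libraries. What it had at its ends, 597, 309, 1221 and 0 bp of H3K9cr in control and 0 in all UUO libraries, lay at its termination.

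Over the gene body, 8 of 43 members were lower in H3K9cr (Acss1, Acss3, Dpf3, Gcdh, Hdac4, Kat5, Kat6a and Sirt3), against 13.6% of all genes, and Sirt6 alone was higher, with 1031 to 1114 bp in UUO and 905 to 951 bp in control, against 2.44% of all genes. Hdac4 had 4252 to 7979 bp in control and 2095 to 3520 bp in UUO, and Dpf3, a double PHD finger reader of BAF complexes, 2010 to 4446 against 1008 to 1638 bp. Per Mb covered, 3 of these stayed lower (Acss1, Hdac4 and Kat6a), against 6.54% of all genes lower on that scale, and 9 members were higher, Sirt6 among them, against 12.2%.

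**Figure D4:**
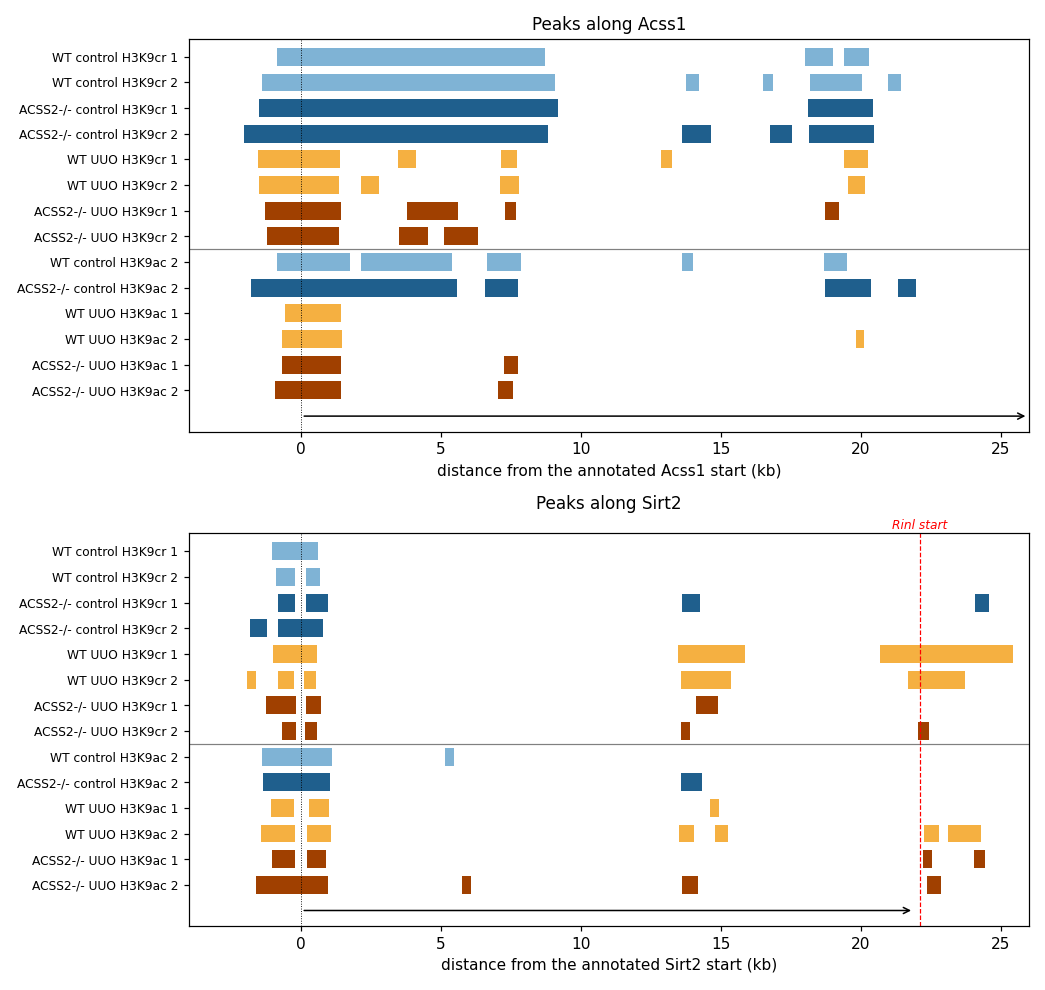
Peaks (bars) along the first 26 kb of Acss1 (upper) and along Sirt2 (lower) in the 14 libraries (rows), by distance in kb from the annotated start (x), with arrows for the genes and a dashed line at the start of Rinl. The H3K9cr control rows of Acss1 have 1 bar of 9607 to 10868 bp over the start, and the UUO rows bars of 2560 to 2930 bp. At Sirt2, long bars near 14 and 22 kb stand in the H3K9cr WT UUO rows.

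H3K9ac was lower in UUO at 21 of 40 members (52.5%), against 43.2% of all 20542 genes, and higher at 0, against 0.355% of all genes. The median difference was -989.4 bp over the members and -622.1 bp over all genes. The exact permutation p cannot go below 0.0667 with 4 libraries against 2, and the smallest adjusted p was 0.197. In order of the mean difference, Dpf2 had 5977 and 7419 bp in control and 1921 to 2754 bp in UUO, Sirt7 5462 and 8643 against 2097 to 3924 bp, Kat8 6523 and 7875 against 3159 to 5090 bp, Dpf3 3767 and 4035 against 401 to 2320 bp, and Sirt3 4272 and 4143 against 1844 to 2289 bp. Acss1, Kat6b, Acss2, Sirt4 and Yeats4 followed, at 1981.0 to 1416.0 bp less on average. The Sirt4 windows hold an end of Pxn and miss the RefSeq start of Sirt4, which lies 6.0 kb inside the annotated gene end. That start was marked in all 14 libraries. Dpf2 differed between the marks in this, since its H3K9cr groups overlapped, with 1852 to 2892 bp in control and 1667 to 2140 bp in UUO. Over the body, 22 of 43 members were lower in H3K9ac, against 39.6% of all genes. Divided by the total covered length, 3 members were lower at the ends (Dpf2, Hdac7 and Yeats4), against 7.91% of all genes, and 11 higher, against 25.5%, so that here too the direction of the group rests on the scale. The bodies so divided gave 6 lower, against 10.6% of all genes, and 10 higher, against 22.6%.

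A further 45 genes of the same machinery, which are subunits of acetyltransferase and deacetylase complexes and other acyl-lysine binding proteins, were counted the same way. For H3K9cr 7 of 43 with a covered base were lower in UUO (Chd3, Ing3, Ing5, Phf10, Sin3a, Tada2a and Tada2b) and 0 higher, and for H3K9ac 19 of 43 were lower and 0 higher. The shares lower were 16.3% and 44.2%, beside the 12.5% and 43.2% of all genes.

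**Figure D5:**
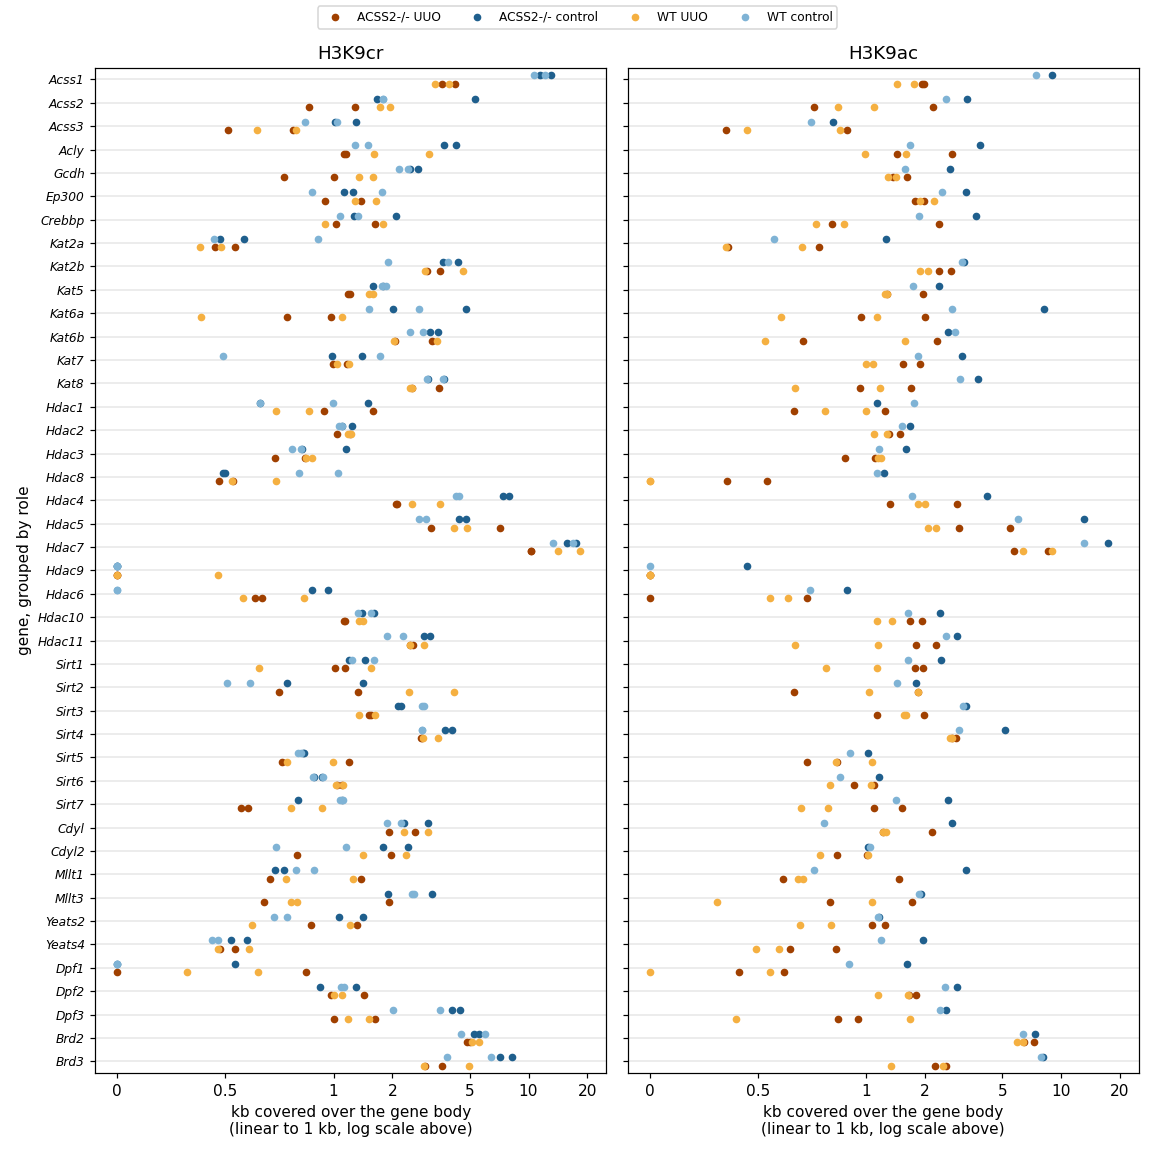
Kilobases covered by peaks over the gene body (x, linear to 1 kb and logarithmic above) for the 43 members (rows, by role) in H3K9cr (left) and H3K9ac (right), 1 point per library, control just above and UUO just below each row's line. In both panels the Acss1 control points lie apart from the UUO points, 10643 to 12989 against 3294 to 4187 bp for H3K9cr and 7461 and 8975 against 1434 to 1979 bp for H3K9ac.

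Between genotypes over both operations, no member was separated at its ends in either mark. This call pools the operations, so that every ACSS2-/- library had to lie on the same side of every WT library. Genes whose UUO libraries all lay below all control libraries could not be called in either direction, whatever the genotype. That was so for 8 members and 12.5% of all genes in H3K9cr, and for 21 members and 43.2% of all genes in H3K9ac. For H3K9cr, 0 members were lower and 0 higher in ACSS2-/-, against 0.371% and 0.851% of all genes, and for H3K9ac 0 and 0, against 0.0389% and 3.97%. In these exact permutation tests, 0 of 40 members had an unadjusted p under 0.05 for H3K9cr and 0 of 40 for H3K9ac, where 3 libraries against 3 cannot give a p below 0.1. Of the 45 further genes, Mta2 was lower in H3K9cr, and Brd7, Brd9, Mta1, Ncor1, Rcor1 and Tada2a were higher in H3K9ac.

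Within UUO kidneys, the marks separated the genotypes in opposite directions. H3K9cr was lower in ACSS2-/- at 10 of 39 members (Sirt2, Gcdh, Brd3, Hdac10, Acss1, Ep300, Kat5, Hdac3, Hdac2 and Yeats4, in order of size), against 24.2% of all 21404 genes, and higher at 1 (Kat8), against 7.76%. H3K9ac was higher in ACSS2-/- at 17 of 38 members, against 27.8% of all 18460 genes, and lower at 1 (Hdac3), against 2.7%. With 2 libraries against 2 the exact permutation p cannot go below 0.333, and every adjusted p was 1.0. The H3K9cr lists of ACSS2-/- UUO covered 29.4 and 39.7 Mb against 35.0 and 44.6 Mb in WT UUO, and the H3K9ac lists 19.3 and 30.9 Mb against 17.7 and 21.2 Mb, so total cover moved in the same directions as the members, and its part in the result was not tested. Divided by it, 6 members were lower and 8 higher in H3K9cr, against 11.9% and 17.7% of all genes, and 3 lower and 5 higher in H3K9ac, against 18.5% and 11.7%.

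Sirt2, the mainly cytoplasmic sirtuin that also acts on histones, had the widest H3K9cr difference between genotypes at the gene ends in UUO kidneys. Its H3K9cr cover at the ends was 5751 and 3385 bp in WT UUO and 1613 and 1283 bp in ACSS2-/- UUO, where WT control had 1672 and 1221 bp and ACSS2-/- control 1896 and 2214 bp. Only the WT UUO libraries stood out. The window at the Sirt2 start held 1545 and 1349 bp in WT UUO and 1613 and 900 bp in ACSS2-/- UUO, which overlap, while the window at its termination held 4206 and 2036 bp in WT UUO and 0 and 383 bp in ACSS2-/- UUO. The start of Rinl lies in that window, 22.1 kb after the Sirt2 start, and a further peak of 2409 and 1798 bp began 13474 and 13562 bp into Sirt2. Shorter H3K9cr peaks lay there in ACSS2-/- UUO (805 and 344 bp) and in ACSS2-/- control replicate 1 (648 bp). In H3K9ac, the termination window had 0 and 1738 bp in WT UUO and 725 and 498 bp in ACSS2-/- UUO. Leukocyte markers moved with it in H3K9cr, at 35516 and 27510 bp summed in WT UUO, with a peak at 8 of 9 markers (Itgam at 0), and 25806 and 12824 bp in ACSS2-/- UUO, with 7 of 9 (Cd3e and Itgam at 0), and their part in the result was not tested. Other lists differed as well in H3K9cr, with proximal tubule markers at 1940 and 3597 bp in WT UUO against 4835 and 5254 bp in ACSS2-/- UUO, distal nephron markers at 11560 and 14669 against 8741 and 9374 bp, and injured tubule markers at 8289 and 9352 against 2547 and 8008 bp. Endothelial and stroma markers overlapped. In H3K9ac, proximal tubule markers were at 2468 and 2536 bp in WT UUO against 6319 and 6666 bp in ACSS2-/- UUO. Distal nephron (5264 and 6320 against 7536 and 7778 bp) and stroma markers (2140 and 2677 against 3093 and 8077 bp) were separated likewise. Leukocyte (7115 and 16205 against 9408 and 31459 bp), injured tubule and endothelial markers overlapped. Their part in the H3K9ac result was not tested.

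Over the gene body, Hdac7 differed by more, with 18458 and 14206 bp of H3K9cr in WT UUO and 10357 and 10341 bp in ACSS2-/- UUO. The other members of this comparison differed by less than Sirt2 at the gene ends. Gcdh had 1834 and 1916 bp of H3K9cr in WT UUO and 1465 and 770 bp in ACSS2-/- UUO, Brd3 1176 and 1168 against 454 and 588 bp, and Acss1 2930 and 3518 against 2719 and 2560 bp. In H3K9ac, Sirt7 had 2240 and 2097 bp in WT UUO and 3924 and 3516 bp in ACSS2-/- UUO, Hdac11, the class IV deacetylase, 1158 and 672 against 1801 and 2286 bp, and Crebbp 1557 and 1475 against 1564 and 3677 bp. The Crebbp groups are 7 bp apart at their nearest, and the difference rests on ACSS2-/- UUO replicate 2, the H3K9ac UUO list with the widest cover. Hdac10, Hdac2 and Yeats4 were lower in H3K9cr and higher in H3K9ac of ACSS2-/- UUO kidneys.

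Class IIa deacetylases, which act as corepressor scaffolds and have little catalytic activity of their own, ranged from Hdac9 with hardly a peak to Hdac7 with a broadly marked body. Hdac7 had 10341 to 18458 bp of H3K9cr over its body, a median of 28.8% of its length, while at its ends it had 797, 0, 499 and 0 bp in control and 3214, 470, 500 and 0 bp in UUO. The marked part is internal: its first start was marked in 3 of 8 H3K9cr libraries and no H3K9ac library, and its starts 12.7 and 13.0 kb further in were marked in all 14. Hdac9 had no body peak but for 466 bp in WT UUO H3K9cr replicate 1 and 448 bp in ACSS2-/- control H3K9ac. Hdac5 had 1423 to 3147 bp of H3K9cr at its ends with overlapping groups.

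Hdac6 and Hdac8 lie on chromosome X. Hdac8, a class I deacetylase, was covered over a median of 0.2% of its 220744 bp in both marks and had 471 to 1059 bp of H3K9cr at its ends in every library, but 0 bp of H3K9ac in both WT UUO libraries. Hdac6, which deacetylates tubulin, had 326 and 391 bp of H3K9cr in WT control, below the 1075 to 1802 bp of the other 6 libraries. There the WT control lists hold a peak before the start alone, while the other lists reach 861 to 974 bp past it. Dpf1 had an end peak in ACSS2-/- control H3K9ac alone, of 1397 bp in all.

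Between the marks, no member was separated at its ends within all 4 groups: 0 of 41 were lower in H3K9cr, against 1.82% of all 24003 genes, and 0 higher, against 5.15%. By the exact permutation test 10 of the 41 members had an unadjusted p under 0.05 there, against 22.5% of all genes, and the smallest adjusted p was 0.0587. Over the gene body, Brd2, Dpf2, Ep300 and Hdac3 were lower in H3K9cr than in H3K9ac in every group, against 2.71% of all genes, and Acss1 was higher, against 6.88%. These 5 had an adjusted exact permutation p of 0.0431 over 22360 genes, 1602 of which passed 0.05. Brd2, a BET reader that was covered over a median of 48.2% of its body by H3K9cr and 59.5% by H3K9ac, had 4491 to 6001 bp of H3K9cr and 5915 to 7334 bp of H3K9ac, with a mean difference within groups of -1452.9 bp. For Ep300 it was -1119.2 bp, for Dpf2 -1027.4 bp and for Hdac3 -353.5 bp. For Acss1 it was 2791.6 bp, higher in H3K9cr. The H3K9ac lists covered less of the genome than the H3K9cr lists of the same group in all groups but ACSS2-/- UUO, where 19.3 and 30.9 Mb overlapped with 29.4 and 39.7 Mb. Per Mb covered, Acss1 was also higher in H3K9cr in each group, at 254.9 and 272.3 against 218.1 bp in WT control, 178.4 and 252.9 against 175.6 bp in ACSS2-/- control, 87.3 and 94.1 against 81.0 and 82.5 bp in WT UUO and 105.5 and 122.5 against 100.9 and 64.1 bp in ACSS2-/- UUO. At the gene ends so divided, a number of members were separated the other way, lower in H3K9cr, as counted in the last section. The study describes both marks as measured in the same samples, but 3 of 6 same-numbered pairs of libraries differ in having peaks on chromosome Y. Which libraries share a mouse could thus not be settled, and the test treats the libraries of the marks as separate.

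For the remaining members, the UUO and control groups overlapped in H3K9cr at the gene ends. In the sirtuins Sirt1, Sirt4, Sirt5 and Sirt6, H3K9cr covered 1413 to 3005, 2507 to 3840, 1080 to 1444 and 1403 to 2021 bp at the ends. The Sirt4 values do not cover its RefSeq start, which its windows miss. YEATS readers had 821 to 1590 bp (Mllt1, which encodes ENL), 1849 to 3732 bp (Mllt3), 725 to 1639 bp (Yeats2, a subunit of the ATAC complex) and 956 to 1403 bp (Yeats4, which encodes GAS41). Cdyl2 had 1541 to 2702 bp. Kat2a (GCN5), Kat2b, Kat5 (TIP60), Kat6b (MORF) and Kat7 (HBO1) had 3251 to 4962, 2659 to 3631, 2136 to 2935, 2098 to 3208 and 1842 to 2565 bp. By role, the highest sum over a library was 32323 bp in H3K9cr and 39375 bp in H3K9ac for the 9 acetyltransferases, and over all 43 members the sums ran from 77346 to 107861 bp and from 62467 to 135264 bp.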

How the data were processed

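ChIP-seq of H3K9cr and H3K9ac in mouse kidney gave 14 libraries, grouped by the sample labels. The authors filtered their reads by quality, aligned them with Bowtie2, dropped duplicates as well as reads of organelles or low mapping quality, and ran MACS2 on every library. The processing notes also name ChIPseeker and the build mm10, without versions, and the control given to MACS2 is not given in the sources used here. The deposited lists hold peak positions, with no counts, score or strand, so the read depth is unknown and no test on reads could be run.

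Bases covered by peaks were summed in the union of the 3 kb windows at both ends of each RefSeq gene of GRCm38.p6, and over the gene body. Strand and start sites came from the RefSeq promoter table, which holds 37 of the 43 members. Groups were called separated when every library of one lay above every library of the other. The difference of means was tested by exact two-sided permutation over libraries, and for the marks within groups, with Benjamini-Hochberg adjustment over all genes with a covered base. Nothing says that libraries are separate mice, so the p-values take libraries, not mice, as their units. The members, gene lists and tests were chosen with earlier results of these data known. Named were Acss2, members with separated groups (at most 10 per direction), members without an end peak in some library, and the rest by role. The cell type markers were fixed lists, of which those of proximal tubule, distal nephron, injured tubule, leukocytes, endothelium and stroma are reported here. A further list is not reported here.

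Alternatives were 1 kb windows, the gene body, the longest 50% of peaks, the same number of longest peaks, division by the total covered length, the number of peaks, an overlap of at least 50%, start windows alone, a replicate block, permutation within genotype or operation, protein-coding genes alone and leaving out each library. The gene body divided by the total covered length was added after seeing the data. The scripts ran under Python 3.11.15 with SciPy 1.17.1, pandas 2.3.3 and numpy 2.4.6, and figures were drawn in matplotlib 3.10.9. Covered bases were tested against bedtools 2.31.1, and 0 of 86 values differed. In simulated lists for H3K9cr UUO against control over 49943 genes, 99.5% of 200 genes whose peaks lost 50% of their length were called lower. All the simulated lists were copies of a single real list with small random changes in peak length. They lack the spread between real libraries, so this share checks the code and does not measure sensitivity in these data.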

Additional observations from a re-analysis of the deposited data

Results flagged for a closer look

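Of 117 sets of 4 libraries (a member's values at the gene ends in H3K9cr control, H3K9cr UUO or H3K9ac UUO, sets at 0 throughout left out), 5 had a library far from the other 3 by Dixon's criterion, and chance flags about 1 in 20. In H3K9ac UUO, ACSS2-/- replicate 2 was high at Crebbp (3677 bp at the gene ends, the others 1475 to 1564), Mllt1 (1537, the others 618 to 707) and Brd2 (5398, the others 4373 to 4406), and it is the H3K9ac UUO list with the widest cover, at 30.9 Mb. In H3K9cr UUO, WT replicate 1 was high at Hdac7 (3214, the others 0 to 500) and ACSS2-/- replicate 2 was low at Hdac2 (1298, the others 1803 to 1853).

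For 7 members, 2 sets of libraries moved in opposite directions with no overlap, and the difference between the directions was not tested. The rule was run on the members alone, and the share of all genes that meet it was not counted. The count thus cannot be read as particular to the members. UUO minus control in H3K9cr was 3121.5 bp in WT and -607.0 bp in ACSS2-/- for Sirt2, 920.5 and -505.0 bp for Hdac6, and 269.0 and -267.0 bp for Yeats4. UUO minus control in H3K9ac, with 1 control library per genotype, was -568.0 bp in WT and 526.0 bp in ACSS2-/- for Yeats2, and 145.0 and -133.0 bp for Sirt6. ACSS2-/- minus WT in UUO was -285.0 bp in H3K9cr and 275.5 bp in H3K9ac for Hdac2, -633.0 and 1066.5 bp for Hdac10, and -202.5 and 530.0 bp for Yeats4.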

How the results depend on the processing

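Counts are of members lower and higher at the gene ends, where the report has, for H3K9cr, 8 and 0 (UUO against control), 0 and 0 (ACSS2-/- against WT) and 10 and 1 (the same in UUO), for H3K9ac 21 and 0, 0 and 0, and 1 and 17, and between the marks 0 and 0. In UUO against control, H3K9cr gave 3 lower with 1 kb windows, 5 with the longest 50% of peaks and 0 lower and 1 higher by number of peaks, and 1 was higher both over the gene body and with an equal number of peaks. Divided by the total covered length, H3K9cr gave 1 lower and 7 higher, and the gene body so divided 3 and 9. H3K9ac gave 12 lower with 1 kb windows, 1 and 1 by number of peaks, 3 and 11 divided by the total, and 6 and 10 for the body so divided. In ACSS2-/- against WT, H3K9cr gave 1 higher (1 kb), 1 lower (equal number) and 2 lower (divided by the total), and H3K9ac 2 higher (1 kb), 3 (body), 2 (equal number), 3 (longest 50%) and 1 lower (overlap of at least 50%). In UUO kidneys, H3K9cr gave 2 higher with 1 kb windows, the body, an equal number and the longest 50%, 6 lower and 8 higher divided by the total, 2 and 0 by number of peaks, and 0 higher in start windows, while H3K9ac gave 2 and 11 (1 kb), 2 lower (equal number), 3 and 5 (divided by the total) and 0 and 2 (number of peaks). Between the marks, 1 was higher (1 kb), 4 lower and 1 higher (body), 1 lower (equal number) and 15 lower (divided by the total). For the marks so divided, and for ACSS2-/- against WT over both operations so divided, the share of all genes was not counted. Nor was it counted for 1 kb windows, the longest or an equal number of peaks, the number of peaks, an overlap of at least 50% or start windows. These counts thus cannot be read as particular to the members. Causes were not tested, and 81 further values were equal or close to the main count, or kept their direction. Among the close ones in UUO against control, H3K9cr gave 6 lower with an equal number of peaks and in start windows. H3K9ac gave 19 lower there with the longest 50% of peaks and 22 over the body. For ACSS2-/- against WT in UUO, H3K9cr gave 8 lower with 1 kb windows and 12 over the body. The Acss2 difference of 313.0 bp became -90.0 bp with the longest 50% or an equal number of peaks and -0.25 peaks by number.

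With the replicate block, UUO against control gave 10 lower in H3K9cr and 33 lower and 2 higher in H3K9ac, ACSS2-/- against WT 2 lower and 1 higher in H3K9cr and 18 higher in H3K9ac, the same in UUO 17 and 5 in H3K9cr and 2 and 22 in H3K9ac, and the marks 2 higher, while Acss2 stayed at 313.0 bp. Same-numbered libraries of a mark deviated together between groups by correlations of -0.1 to 0.2, in H3K9ac between WT UUO and ACSS2-/- UUO alone. H3K9cr was not set against H3K9ac there, so this cannot decide whether same-numbered libraries of the marks share a mouse. Permuted within genotype, 0 members had p under 0.05 for H3K9cr UUO against control, in place of 8, since the smallest exact permutation p is then 0.0556.

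Leaving out 1 library, UUO against control ranged over 8 to 12 lower and 0 to 1 higher in H3K9cr and 21 to 35 lower and 0 to 1 higher in H3K9ac, 35 without WT control replicate 2. ACSS2-/- against WT ranged over 0 to 2 lower and 0 to 2 higher in H3K9cr, and 0 to 1 lower and 0 to 17 higher in H3K9ac, with 17 without WT control replicate 2 and 11 without ACSS2-/- UUO replicate 1. In UUO kidneys the range was 12 to 25 lower and 3 to 13 higher in H3K9cr (25 without WT replicate 2, 22 without ACSS2-/- replicate 1, 13 higher without WT replicate 1, 10 higher without ACSS2-/- replicate 2) and 1 to 10 lower and 18 to 31 higher in H3K9ac (10 lower without ACSS2-/- replicate 2, 31 higher without ACSS2-/- replicate 1), where 1 library remains on a side. Between the marks it was 0 to 1 lower and 0 to 2 higher, and for Acss2 -92.2 to 547.8 bp. The share of all genes was not counted with the replicate block or with a library left out. Those counts cannot be read as particular to the members either. The unknown read depth limits how far a missing peak can be read.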
